A study of Homo sapiens with 12 samples.

Results

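Gene expression in strongly acid medium (pH 6.4) was compared with that in mildly acid medium (pH 6.9) in MDA-MB-231 cells after 24 h. MDA-MB-231 is an established human triple-negative breast cancer line of basal, mesenchymal character, wild type in genotype per the labels. The comparison takes the 4 libraries labelled pH 6.4 and the 4 labelled pH 6.9, which are 8 of the 12 libraries of the series, and covers all 17544 genes that passed a filter on low counts. The other 4 libraries, at pH 7.4, shared the estimate of the spread and are quoted only as context. All groups shared the same culture: 500000 cells were plated in high-glucose medium with serum and antibiotics at pH 7.4, grew to 70 to 80% confluence, and were washed and kept in medium of the set pH for 24 h. The sample labels give pH 6.9 for the milder medium, while the protocol gives pH 6.7. The labels' name is used throughout, since nothing at hand settles the difference. All data come from 1 cell line, and the word repeat in the labels does not state separate cultures, so p-values measure only the spread between these samples.

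Tumours acidify their surroundings because glycolysis releases lactate and protons. Cells hold their internal pH with sodium-proton exchangers, bicarbonate carriers, monocarboxylate carriers and carbonic anhydrases, and they sense acid through receptors and channels on their surface. Acid medium is known to slow growth and to raise TXNIP through the sugar-sensing factor MondoA. The title of the study names acidosis, hypoxia and cancer cell dissemination. Setting the stronger acid against the milder one asks what the further step down in pH does.

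The libraries held 27018171 to 49803831 counts at pH 6.9 and 31118831 to 50643233 at pH 6.4. Each was placed on a line through the averages of both media over 8027 abundant genes, with that library left out of the averages, scaled so that 0 stands for pH 6.9 and 1 for pH 6.4. On this line all pH 6.9 libraries fell between -0.00506 and 0.169. Repeats 1, 2 and 4 at pH 6.4 lay at 0.797, 1.53 and 1.33, whereas repeat 3 lay at 0.259, nearer to pH 6.9, so leading counts are also given without it. Of 6 library measures none differed past an adjusted threshold (two-sided exact permutation tests, n = 4 a side, smallest possible p = 0.0286). The lowest p, 0.0571 (adjusted p = 0.343), was for mitochondrial ribosomal RNA, at 1.44% ± 0.269 of counts at pH 6.4 and 0.995% ± 0.136 at pH 6.9 (SD, n = 4), and its part in the results was not tested. The line's markers CD44, VIM, AXL and EGFR were abundant in both media. Of the 8 markers listed for the line, 4 were called higher at pH 6.4 and 2, CAV1 and S100A4, lower. That is 75% called, against 17.0% of all tested genes. Of other cell types 5 of 8 leukocyte markers, 3 of 6 endothelial markers and 4 of 8 markers of fibroblasts and muscle passed the filter and none was called. Their summed levels were 12.02, 11.93 and 17.25 CPM (counts scaled for library depth) at pH 6.9 and 6.52, 15.9 and 16.5 CPM at pH 6.4, with CD3E, CDH5 and DCN below the filter, and their part in the results was not tested. Of the 10 luminal markers 6 passed the filter, with ESR1, PGR and FOXA1 among those below it, and XBP1 alone was called. Those 6 summed to 365.6 CPM at pH 6.9 and 418.4 CPM at pH 6.4, far above the other cell types' markers. Their part in the results was not tested.

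At pH 6.4, 1550 genes were higher (8.83% of those tested) and 1438 lower (8.20%) than at pH 6.9, together 2988 or 17.0%, at a Benjamini-Hochberg adjusted p under 0.05 by edgeR's quasi-likelihood test. All adjusted p-values below come from that test. Of 50 DNA replication genes 43 fell, and of 54 mitosis genes 10 were called, 5 in each direction. The growth factor gene AREG and the thioredoxin-binding TXNIP were among the strong rises at high levels, and the phosphatase gene ALPP, the myosin gene MYH15 and the small GTPase gene RAB17 were among the strong falls. Most changes were modest, with a median absolute log2 change of 0.56 among called genes, and 183 rises and 256 falls were over 2-fold. Against a fold change of 1.5, only 3 genes passed: ADIRF-AS1 (chr10:86965345-86971311) and AREG (chr4:74445134-74455009) upward and ALPP (chr2:232378534-232382889) downward, by GENCODE 29 positions in GRCh38. Without repeat 3 at pH 6.4 the number was 524.

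The 4 pH 6.4 libraries lay entirely above the 4 pH 6.9 libraries for 1691 genes and entirely below for 1894, and 2203 of the 2988 called genes showed such a gap, which 20.4% of all tested genes did. In 85.8% of the called genes repeat 3 was the pH 6.4 library nearest to pH 6.9. Without it the count was 2474 higher and 2470 lower. It fell to 659 and 512 without repeat 2 at pH 6.4, to 685 and 546 without repeat 4 at pH 6.4, to 848 and 722 without repeat 1, 816 and 812 without repeat 3 and 958 and 922 without repeat 4 at pH 6.9. With the repeat number as a block, 2823 genes were higher and 2633 lower. Repeats 1 and 2 alone gave 1051 and 855, and repeats 3 and 4 alone gave 0 by the same test, with 3161 genes at an unadjusted p under 0.05 against 5516 in the full fit. Scaled by library size in place of TMM, 38.2% of the calls were higher in place of 51.9%, with the median over all genes moving from -0.0141 to -0.0921. Leaving out 1 library at pH 6.4 or pH 6.9 moved 10 to 36 of the 66 counts of called list members by more than 1.5 times, most without repeat 2 at pH 6.4, and the block moved 39, so the lists below are given with their lowest and highest counts where these moved so far.

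**Figure D1:**
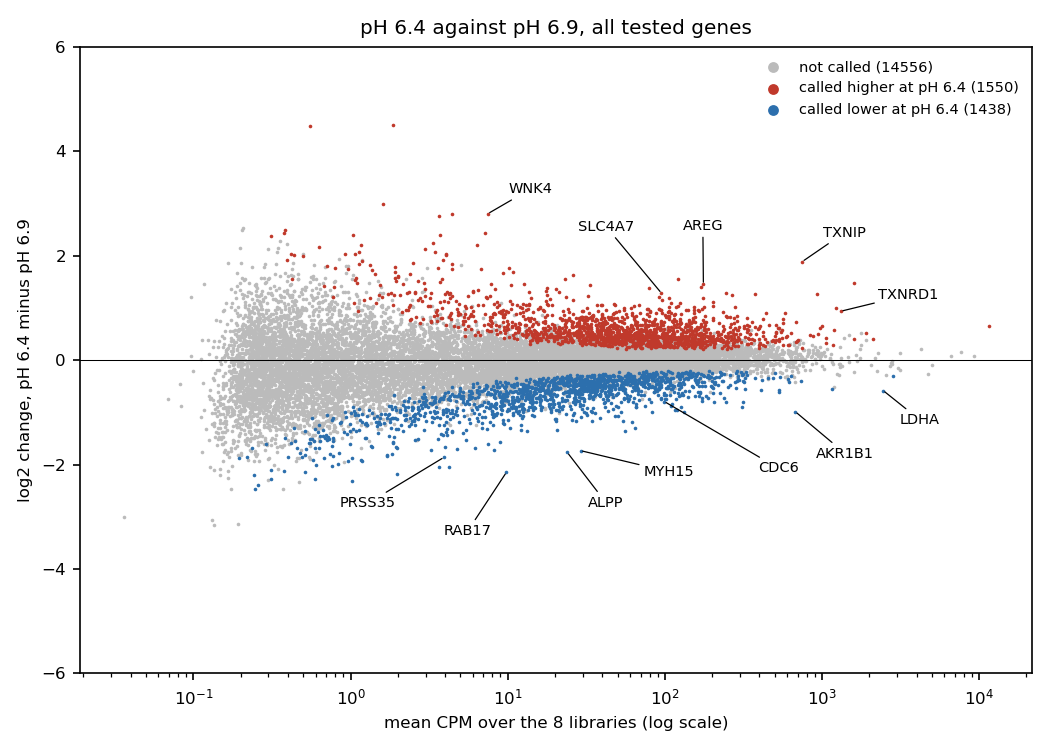
Log2 change from pH 6.9 to pH 6.4 (vertical axis) against the mean CPM over the 8 libraries (horizontal axis, log scale) for the 17544 tested genes. Red points are the 1550 genes called higher, blue the 1438 called lower and grey the rest, and most coloured points lie within 1 log2 unit of 0.

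Calls were unevenly spread over levels. Only 2.12% of genes under 1 CPM were called and 26.1% of those over 100 CPM. Above 100 CPM 466 genes were higher and 187 lower, whereas between 5 and 20 CPM 225 were higher and 390 lower. Among protein-coding genes 20.4% were called (1456 higher, 1260 lower), against 8.09% of lincRNA genes (23 higher, 59 lower) and 7.58% of antisense genes (22 higher, 63 lower).

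The 12 largest rises were taken among called genes of at least 5 CPM in the higher medium. They were also required to have no overlap between the pH 6.4 and pH 6.9 libraries, so that gap is no separate result. All but TXNIP rose from low levels. WNK4, a kinase that regulates ion cotransport, had 1.87, 1.63, 1.62 and 2.34 CPM at pH 6.9 and 8.31, 19.2, 4.97 and 19.9 CPM at pH 6.4, each set running from repeat 1 to repeat 4 here and below. Every pH 6.4 library lay above every pH 6.9 library, with repeats 2 and 4 highest, and the change was 6.997-fold (log2 2.81, SE 0.42; adjusted p = 0.00263). The secretory vesicle GTPase gene RAB3B had 1.31, 1.37, 0.866 and 0.816 CPM at pH 6.9 and 4.93, 11.7, 1.58 and 12.6 CPM at pH 6.4 (log2 2.80; adjusted p = 0.00428), and its repeat 3 at pH 6.4 was barely above pH 6.9. The neighbouring amine oxidase genes AOC3 and AOC2, which are close paralogs, rose together, by 2.77 and 2.20 on the log2 scale, as are all sizes given below with the word by or alone after a gene. The cytokine gene IL24 rose by 2.40, the oviductal glycoprotein gene OVGP1 by 2.24, the keratin-associated KRTAP2-3 by 2.08, HYPK by 2.04, the guanylate cyclase activator gene GUCA1B by 2.01, and the non-coding or pseudogene transcripts RPSAP52 and ZNNT1 by 2.44 and 1.91. WNK4 and HYPK share exon bases with neighbouring genes and KRTAP2-3 has near-identical copies, so these 3 values are uncertain, and the call of HYPK was lost when any 1 of 6 libraries was left out. The list of 12 ended with TXNIP, described with its pathway below.

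The largest falls, taken by the same rule and so without overlap by choice, included transport, innate immune and metabolic genes. RAB17, a GTPase of epithelial membrane traffic, had 19.2, 12.4, 20.3 and 12.3 CPM at pH 6.9 and 3.80, 1.51, 7.11 and 1.92 CPM at pH 6.4; all pH 6.4 libraries were lower, repeats 2 and 4 the most (log2 -2.15, SE 0.37; adjusted p = 0.00415). The water channel AQP5 had 7.11, 6.59, 6.02 and 3.92 CPM at pH 6.9 and 1.49, 0.841, 2.80 and 0.480 CPM at pH 6.4 (log2 -2.05), and the double-stranded RNA receptor TLR3 had 7.74, 5.89, 7.61 and 6.08 CPM at pH 6.9 and 1.61, 1.06, 2.90 and 0.993 CPM at pH 6.4 (log2 -2.05; adjusted p = 0.00195). As the rule required, neither gene's groups overlapped. PRSS35, a serine protease homologue, fell from 6.18 ± 1.25 to 1.67 ± 0.762 CPM (SD, n = 4), after a mean of 36.8 CPM at pH 7.4. The others were MYH15 (-1.73), the microRNA host MIR1915HG (-1.72), RANBP3L (-1.72), the metalloprotease inhibitor TIMP4 (-1.68), the mitochondrial coactivator PPARGC1A (-1.67), the RNA-binding RBM45 (-1.60) and the galectin LGALS12 (-1.57), all log2 changes. The calls of RANBP3L and LGALS12 were lost without repeat 1 at pH 6.9 or repeat 2 at pH 6.4, and that of LGALS12 also without repeat 3 at pH 6.9 or repeat 4 at pH 6.4.

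The firmest differences by adjusted p were ADIRF-AS1, FAM13B, AREG, ALPP, MIR100HG and ADAMTSL4. The antisense RNA ADIRF-AS1 had 13.96, 13.7, 12.2 and 10.95 CPM at pH 6.9 and 42.5, 39.4, 29.6 and 46.1 CPM at pH 6.4, with the groups far apart (log2 1.63, SE 0.14; adjusted p = 0.000149). ALPP, placental alkaline phosphatase, had 32.1, 34.996, 46.7 and 34.4 CPM at pH 6.9 and 8.56, 8.09, 15.3 and 11.5 CPM at pH 6.4, lower in every pH 6.4 library (log2 -1.77, SE 0.19; adjusted p = 0.000535), after 86.6 CPM at pH 7.4. FAM13B, a GTPase-activating protein gene, had 91.9, 74.3, 86.3 and 84.0 CPM at pH 6.9 and 46.5, 48.8, 49.8 and 42.6 CPM at pH 6.4 (log2 -0.84, SE 0.08), and here repeat 3 at pH 6.4 lay with the other 3. The microRNA host MIR100HG and the matrix protein ADAMTSL4 rose by 1.25 and 1.05. At least 10% of the exon bases of ADIRF-AS1, FAM13B, ALPP and ADAMTSL4 are shared with other annotated genes, as are those of TIMP4 above and SLC4A2, MARS1, TRIM22, POLR1C and ATP5PB below, and since the strand setting of the counting is unknown these values are uncertain.

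**Figure D2:**
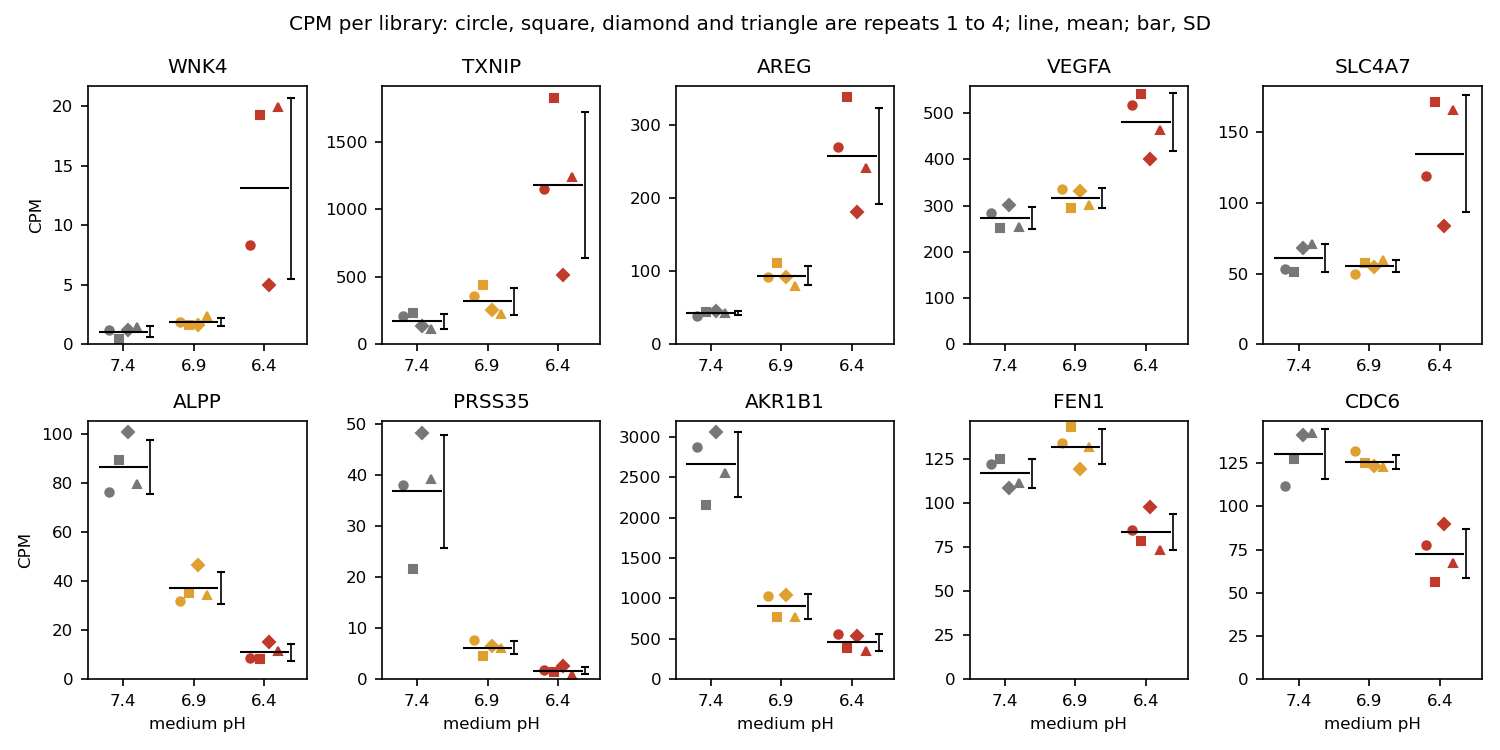
CPM of 10 genes (vertical axes, starting at 0) in each library at pH 7.4 (grey), pH 6.9 (orange) and pH 6.4 (red); circles, squares, diamonds and triangles are repeats 1 to 4, lines are means and bars the SD over 4 libraries. In all 10 the pH 6.4 libraries do not overlap the pH 6.9 libraries, which the rule of naming required for WNK4, TXNIP, ALPP and PRSS35. The diamond at pH 6.4, repeat 3, is nearest to pH 6.9 in all but AKR1B1.

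Carriers of acid and base were called in both directions. Of 26 tested, 3 rose and 3 fell (23.1% called, against 17.0% of all tested genes). The median log2 was -0.20, against -0.0141 for all genes, and 9 fell once repeat numbers were blocked. Without repeat 2 at pH 6.4 only 1 rose, and without repeat 3 at pH 6.4, 6 fell. SLC4A7, which imports bicarbonate with sodium, had 49.7, 57.2, 54.7 and 59.4 CPM at pH 6.9 and 119, 171, 83.3 and 166 CPM at pH 6.4; every pH 6.4 library was higher, repeat 3 least (log2 1.29, SE 0.19; adjusted p = 0.00242). At pH 7.4 its mean was 60.9 CPM. The chloride-bicarbonate exchanger SLC4A2, which moves bicarbonate out of the cell, had 242, 224, 295 and 289 CPM at pH 6.9 and 139, 121, 199.7 and 140.0 CPM at pH 6.4 and fell in all 4 (log2 -0.81; adjusted p = 0.00369). The sulfate and anion exchanger SLC26A2 fell from 65.5 ± 4.99 to 31.2 ± 9.23 CPM (SD, n = 4), the organellar sodium-proton exchanger SLC9A7 rose by 0.76, a call lost without repeat 2 at pH 6.4, the anion exchanger SLC26A6 rose by 0.39 and the Golgi exchanger SLC9A8 fell by 0.41. The acid-responsive carbonic anhydrases CA9 (-0.48) and CA12 (-0.23) and the lactate carriers SLC16A1 (-0.68) and SLC16A3 (-0.30) were not called. These 4 were chosen after their values were seen.

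Of the proton sensors 4 of the 8 tested were called (50%, against 17.0% of all tested genes), 3 upward. The rest of the 16 listed were below the filter. PACC1, the acid-activated chloride channel, rose from 17.9 ± 2.69 to 31.3 ± 8.43 CPM (SD, n = 4), and the potassium leak channel KCNK6 by 1.37. ASIC1, the acid-sensing sodium channel, went the other way, from 23.7 ± 3.43 to 13.1 ± 2.87 CPM (log2 -0.85; adjusted p = 0.00504). The calls of PACC1, KCNK6 and ASIC1 held in each fit that left out 1 library, and the block added 2 rises.

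MondoA is a transcription factor that responds to sugar phosphates and to acid medium. It pairs with MLX on a doubled E-box, the carbohydrate response element, in the promoters of TXNIP and ARRDC4. The 200 bases before the RefSeq start of TXNIP (GRCh38.p14, chr1:145996580-145996779, minus strand) are shown because TXNIP led the abundant rises, with the match to that element, bases 88 to 72 before the start, in capitals.

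TXNIP: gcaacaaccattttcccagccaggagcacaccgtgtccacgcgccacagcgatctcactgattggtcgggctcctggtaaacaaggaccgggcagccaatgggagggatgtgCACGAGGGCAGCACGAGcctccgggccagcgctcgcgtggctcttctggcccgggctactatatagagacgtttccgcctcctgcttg

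The element, searched as a CACGNG pair on both strands from 250 bases before to 50 after the start, was found in 1 of the 7 listed promoters in the table and in 0.0732% of all 27305. A match is a description of letters, not of binding. TXNIP, which restrains glucose uptake and binds thioredoxin, had 360.4, 437, 256 and 221 CPM at pH 6.9 and 1147, 1827, 510.3 and 1237 CPM at pH 6.4. The lowest pH 6.4 library, repeat 3, still lay above the highest pH 6.9 library, repeat 2 (log2 1.89, SE 0.33; adjusted p = 0.00418; 1.90 within repeats 1 and 2 and 1.89 within repeats 3 and 4). Its mean was 172 CPM at pH 7.4. The list named for MondoA targets also holds MLXIP, MLXIPL and MLX, which are genes of the factor, its paralog and its partner. In it 5 of 8 rose and none fell (62.5%, against 8.83% of all tested genes higher). Besides TXNIP these were the arrestin-like ARRDC4 by 1.35 and ARRDC3 by 0.89, the hexokinase HK2 by 0.43, and MLXIP, the gene of MondoA itself, by 0.35. The count was 4 or 5 whichever single library was left out.

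Glycolysis genes had 2 of 23 higher and 2 lower (median log2 -0.12, and below 0 within each of the 4 repeat numbers). The share called, 17.4%, was near the 17.0% of all tested genes. The ending enzymes fell: LDHA, which makes lactate, had 3236, 2818, 3114 and 2582 CPM at pH 6.9 and 2080.0, 1672, 2422 and 1677 CPM at pH 6.4 (log2 -0.58; adjusted p = 0.00735), and PKM fell by 0.31, a call lost without repeats 1 or 3 at pH 6.9 or repeats 2 or 4 at pH 6.4. Both have pseudogene copies. The neuronal-type glucose transporter SLC2A3 rose from 59.6 ± 10.2 to 133 ± 45.8 CPM (SD, n = 4), while the ubiquitous SLC2A1 stood at -0.10 and was not called. With the block 4 rose and 9 fell, and without repeat 3 at pH 6.4 the counts were 4 and 5. Hypoxia targets outside glycolysis had 4 of 25 higher and 1 lower (20% called, against 17.0% of all genes), and 7 and 5 with the block, and 4 fell without repeat 3 at pH 6.4. The vessel growth factor VEGFA had 336, 294, 332 and 302 CPM at pH 6.9 and 518, 542, 401 and 464 CPM at pH 6.4 (log2 0.61), and HIF1A, the oxygen-sensing factor, rose by 0.44. NDRG1 rose by 0.29 and the collagen-modifying PLOD2 fell by 0.29, and each of these calls was lost when any 1 of at least 6 libraries was left out. The classical targets CA9, ADM, BNIP3 and ANKRD37 were not called (-0.48, 0.08, -0.32 and -0.43; chosen after their values were seen).

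The integrated stress response slows translation and, through ATF4, turns on amino acid supply. Of its 33 tested genes 10 rose and none fell (median log2 0.27). That is 30.3%, against 8.83% of all tested genes higher. The count of rises ran from 4 without repeat 4 at pH 6.4 to 13 without repeat 3 at pH 6.4. With the block 15 rose and 1 fell, and 1 also fell without repeat 1 at pH 7.4 or repeat 3 at pH 6.4. Asparagine synthetase ASNS rose by 1.52. Other leading members were the partner factor DDIT3 (18.1 ± 1.14 to 28.5 ± 6.15 CPM), the pseudokinase TRIB3 (24.4 ± 2.63 to 43.2 ± 11.97 CPM; log2 0.82; adjusted p = 0.00876), the glutamine importer SLC1A5 (0.73) and the mitochondrial folate enzyme MTHFD2 (0.52; lost without repeat 4 at pH 6.4). DDIT3, SLC1A5 and MTHFD2 share exon bases with genes on the opposite strand. ATF4 (0.08) and its target CHAC1 (0.12), picked after their values were seen, were not called. The list's median from pH 7.4 to pH 6.9 in the same fit was 0.49. The C/EBP-ATF element TGATGNAA was found in 5 of 28 promoters of the list and in 3.67% of all. The 5 were those of the called ASNS and ATF3 and of SLC3A2, SLC7A1 and CHAC1, which were not called. Cytosolic tRNA synthetases, which charge tRNAs and are known targets of the same response, rose in 5 of 20 cases, led by CARS1 (131 ± 8.33 to 174 ± 17.6 CPM; log2 0.41), GARS1 (0.51), YARS1 (0.40) and MARS1 (0.40). Those 5 are 25% of the synthetases, against 8.83% of all tested genes higher. The synthetase count was 12 higher and 1 lower with the block and 1 higher without repeat 4 at pH 6.4. Without repeat 3 at pH 6.4 it was 9 higher and 1 lower. Of these 4 calls only that of CARS1 held in all 12 fits that left 1 library out.

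NRF2 targets, the antioxidant and detoxifying genes, rose in 9 of 28 cases and 1 fell (median log2 0.18). That is 35.7% called, against 17.0% of all tested genes. Without repeat 2 at pH 6.4, 4 rose, and without repeat 1 at pH 6.4, 3 fell. With the block 12 rose and 5 fell. TXNRD1, thioredoxin reductase, had 974, 1177, 759 and 710.2 CPM at pH 6.9 and 1892, 2246, 1161 and 1639 CPM at pH 6.4; repeat 3 at pH 6.4 lay just below the highest pH 6.9 library, repeat 2, so the groups overlapped (log2 0.94; adjusted p = 0.00893). Glutathione reductase GSR rose from 40.7 ± 1.88 to 59.6 ± 8.01 CPM (SD, n = 4; log2 0.55), the growth inhibitor OSGIN1 by 1.06, transketolase TKT by 0.61, the glutathione-making GCLC and GCLM by 0.58 and 0.38 and the ferritin light chain FTL by 0.41. The malic enzyme ME1 fell by 0.42. HMOX1 and NQO1, usual reporters of NRF2, were not called (-0.11 and -0.15; chosen after their values were seen). OSGIN1 shares exon bases with another gene, and FTL has many pseudogene copies and lost its call when any 1 of 5 libraries was left out.

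Of 25 cholesterol synthesis and uptake genes 5 fell and none rose, or 20% called, against 17.0% of all genes called and 8.20% lower. The median was -0.07, where the same list had -0.65 from pH 7.4 to pH 6.9 in the same fit. PMVK, a mevalonate pathway kinase, had 21.3, 23.4, 18.2 and 18.4 CPM at pH 6.9 and 12.2, 10.6, 13.9 and 10.2 CPM at pH 6.4 (log2 -0.79, SE 0.13; adjusted p = 0.00369), and its groups did not overlap. The kinase MVK fell by 0.50, ACAT2, the first thiolase, by 0.66, and LSS, which closes the sterol ring, by 0.49. Exons of ACAT2 overlap genes of the opposite strand over 52.3% of their bases. With the block 1 member rose and 7 fell, and without repeat 3 at pH 6.4, 6 rose and 5 fell. The feedback genes SQLE and INSIG1 had 0.41 and 0.29 and were not called (both were chosen after their values were seen). The sterol element TCACNCCAC was found in 1 of 18 promoters of the list, that of SREBF2, and in 1.15% of all.

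Fatty acid and phospholipid synthesis fell in 7 of 21 cases with none higher (33.3%, against 8.20% of all tested genes lower). The median log2 was -0.16, and 3 fell without repeat 3 at pH 6.9. LPIN1, a phosphatidate phosphatase, had 108, 102, 118 and 97.5 CPM at pH 6.9 and 76.6, 76.1, 84.7 and 71.9 CPM at pH 6.4 (log2 -0.46; adjusted p = 0.00487), ACSL3, which activates fatty acids, fell by 0.43, and the lipogenic regulator SREBF1 by 0.67, a call lost without repeats 2 or 4 at pH 6.4 or repeat 3 at pH 6.9. Neither LPIN1 nor ACSL3 had overlapping groups. FASN and ACLY stood at -0.02 and 0.07 and were not called (chosen after their values were seen). With the block 3 rose, and without repeat 3 at pH 6.4, 2 rose. Fatty acid oxidation and lipid droplet genes had 4 of 30 higher and 3 lower (23.3% called, against 17.0% of all tested genes). With the block the counts were 8 and 5. Without repeat 3 at pH 6.4, 7 rose, and without repeat 1 at pH 7.4, 5 fell. The 4 rises were 3 nuclear receptors of lipid use, PPARA (48.5 ± 5.41 to 90.6 ± 22.0 CPM; log2 0.90), PPARD (0.43) and PPARG (0.41), and the droplet coat PLIN3 (0.52). Their coactivator PPARGC1A had 5.59, 6.96, 6.02 and 5.61 CPM at pH 6.9 and 1.73, 1.34, 3.23 and 1.27 CPM at pH 6.4, lower in every pH 6.4 library. HADH fell by 0.43 and the fatty acid carrier FABP3, below 1 CPM in both media, by 1.55, and both calls were lost without repeat 2 or repeat 4 at pH 6.4.

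DNA replication starts when licensing factors load the MCM helicase onto origins, after which GINS and CDC45 start it and polymerases, PCNA and nucleotide-making enzymes copy the strand. Their genes are known targets of E2F factors at the entry to S phase. Sequence is shown for 2 of them, MCM6 (chr2:135876444-135876643, minus strand) and PCNA (chr20:5126623-5126822, minus strand), as the 200 bases before the RefSeq start in GRCh38.p14. Capitals mark TTTGGCGC in MCM6 and the reverse complement of TTTCCCGC in PCNA. These are the 2 E2F forms searched on both strands and chosen after the data were seen.

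MCM6: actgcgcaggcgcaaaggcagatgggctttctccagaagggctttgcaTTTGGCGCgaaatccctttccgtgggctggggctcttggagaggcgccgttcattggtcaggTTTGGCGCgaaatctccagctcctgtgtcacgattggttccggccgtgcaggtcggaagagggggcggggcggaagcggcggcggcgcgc

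PCNA: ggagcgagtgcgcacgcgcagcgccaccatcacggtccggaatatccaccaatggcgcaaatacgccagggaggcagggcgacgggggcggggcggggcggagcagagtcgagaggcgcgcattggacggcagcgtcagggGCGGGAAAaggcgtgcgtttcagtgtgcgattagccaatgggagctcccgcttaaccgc

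Among the 42 replication genes with a listed promoter, TTTCCCGC was found in 11 (1.66% of all 27305) and TTTGGCGC in 10 (0.659% of all), over the same 300 bases as above. No replication promoter held both, so 21 held either form, against 2.31% of all. Of the 36 called genes with a promoter 20 held a match.

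In the replication and G1/S list 43 of 50 genes fell and 1 rose, where 8.20% of all tested genes fell, and the list's median was -0.65. In 39 of the 50 the pH 6.4 and pH 6.9 libraries did not overlap, where 20.4% of all tested genes showed such a gap. The median was -0.57, -1.002, -0.19 and -0.84 within repeats 1 to 4, and the count of falls ran from 28 without repeat 4 at pH 6.4 to 46 without repeat 3 at pH 6.4. From pH 7.4 to pH 6.9 the median was 0.19 in the same fit.

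Most licensing and helicase genes fell. CDC6, which loads the helicase, had 132, 125, 124 and 123 CPM at pH 6.9 and 77.5, 56.3, 89.9 and 66.996 CPM at pH 6.4 (log2 -0.79, SE 0.12; adjusted p = 0.00293). All pH 6.4 values lay below the narrow pH 6.9 range, repeat 2 lowest and repeat 3 highest. The helicase subunits MCM2 to MCM6 fell by 0.81, 0.79, 0.72, 0.61 and 0.73 in that order, MCM7 by 0.30 and the assembly factor MCM10 by 1.02. GINS1 to GINS4 fell by 0.42, 0.99, 0.77 and 1.11, GINS4 the most of the list. ORC1 fell by 0.69, whereas ORC6 (-0.20) and CDT1 (-0.51) were not called.

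Genes of the replication fork followed. FEN1, which trims Okazaki fragments, had 134, 143, 119 and 132 CPM at pH 6.9 and 84.4, 78.6, 97.7 and 73.3 CPM at pH 6.4 (log2 -0.66, SE 0.09; adjusted p = 0.0023), and CLSPN, the checkpoint adaptor claspin, had 94.9, 78.5, 84.4 and 89.2 CPM at pH 6.9 and 53.01, 39.0, 63.1 and 49.8 CPM at pH 6.4 (log2 -0.76). Both sets of libraries were apart. The sliding clamp PCNA fell from 219 ± 29.7 to 128 ± 30.1 CPM (SD, n = 4; log2 -0.77), the primase PRIM1 by 0.95, and the polymerase genes POLA1, POLE, POLE2 and POLD3 by 0.73, 0.46, 0.64 and 0.41. POLA2 (-0.76, SE 0.28) and POLD1 (-0.39) missed the threshold. Nucleotide supply fell with them: RRM2 by 0.70, RRM1 by 0.39, thymidylate synthase TYMS by 0.53 and thymidine kinase TK1 by 0.62. Among regulators cyclins CCNE1 and CCNE2 fell by 0.66 and 1.01, CCND1 by 0.35, the activators E2F1 and E2F2 by 0.75 and 0.98, and the repressor E2F8 by 0.51. E2F7, another repressor of the family, was the exception and rose in every library, with 176, 167, 174 and 180.3 CPM at pH 6.9 and 219, 240.0, 228 and 237 CPM at pH 6.4 (log2 0.41; adjusted p = 0.00364).

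**Figure D3:**
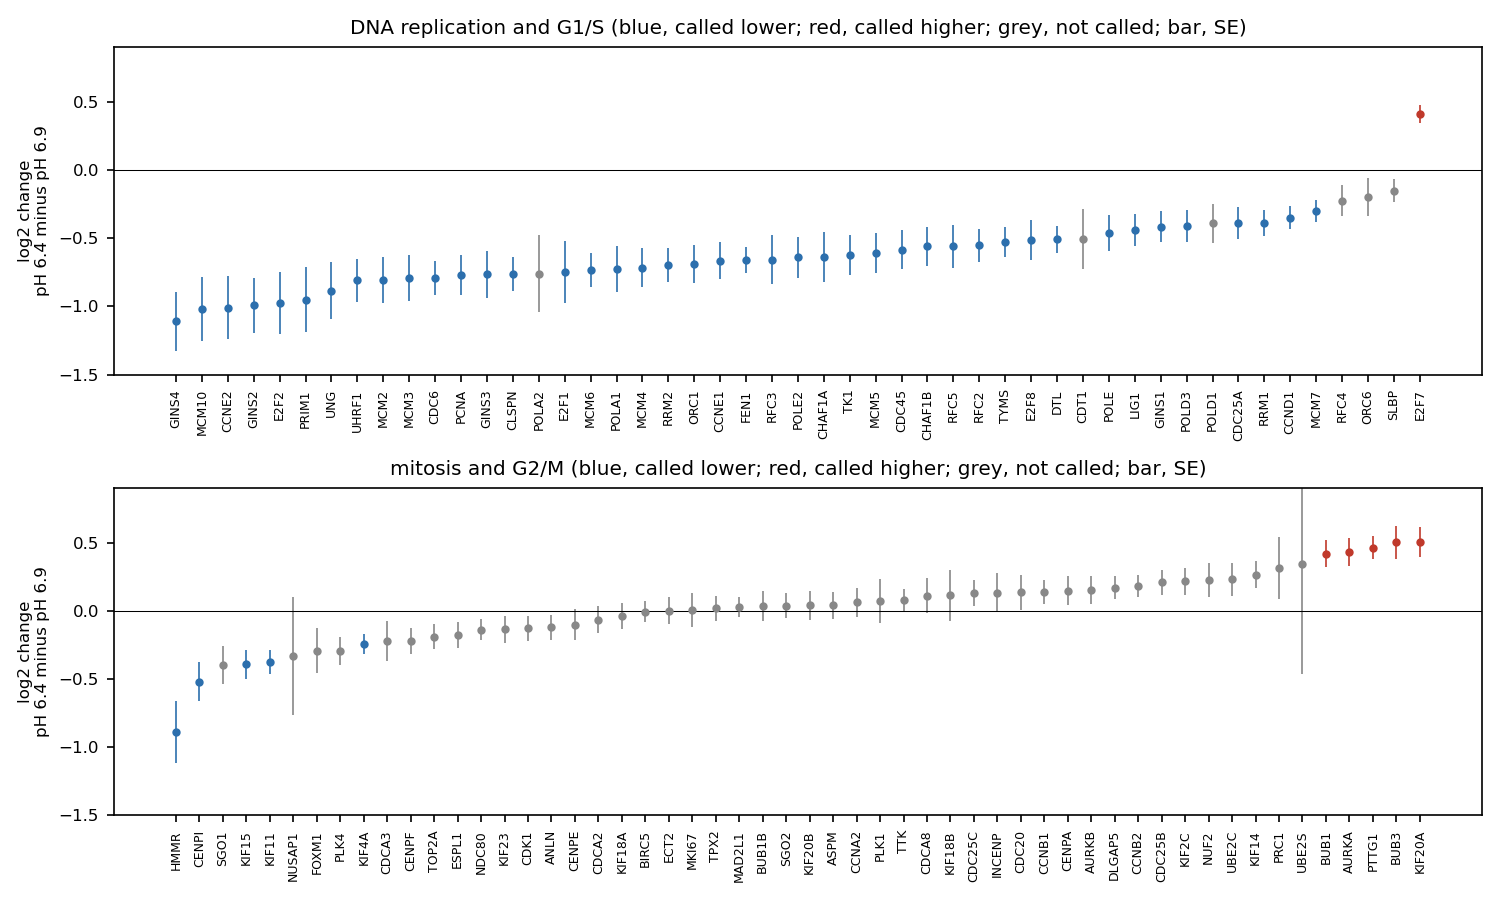
Log2 change from pH 6.9 to pH 6.4 (vertical axis) of 49 of the 50 replication and G1/S genes (top) and the 54 mitosis and G2/M genes (bottom), ordered by size, with bars for the SE; the long bar of UBE2S is clipped by the axis. Blue points are called lower, red higher and grey neither: 42 plotted replication genes are blue and 1, E2F7, is red, against 5 and 5 of the mitosis genes.

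Mitosis genes, which act later in the cycle, had 5 of 54 higher and 5 lower (median log2 0.04), near the share of all genes, and 13 and 9 with the block. Without repeat 4 at pH 6.4, 2 rose and 1 fell, without repeat 2 at pH 6.4, 1 fell, and without repeat 3 at pH 6.4, 8 fell. The securin PTTG1 had 143, 157, 157 and 163 CPM at pH 6.9 and 219, 221, 189 and 226 CPM at pH 6.4 (log2 0.46; adjusted p = 0.00504), higher in all 4 pH 6.4 libraries. The kinesin KIF20A rose by 0.50, the kinase AURKA by 0.43 (lost without repeat 4 at pH 6.4) and the checkpoint genes BUB1 and BUB3 by 0.42 and 0.50. The spindle motor KIF11 fell by 0.38 and HMMR by 0.89, together with KIF15, KIF4A and CENPI. The proliferation marker MKI67 had 744 ± 104 and 747 ± 67.1 CPM in the milder and stronger acid (SD, n = 4; log2 0.01; adjusted p = 0.979), and CDK1 stood at -0.13, neither called (chosen after their values were seen). In bulk libraries fewer cells in a phase and less RNA per cell cannot be told apart.

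Growth arrest and p53 targets had 5 of 27 higher and 1 lower (22.2% called, against 17.0% of all tested genes). The median log2 was 0.25, with 1 rise left without repeats 1 or 4 at pH 6.9 or repeat 2 at pH 6.4. With the block 10 rose and 2 fell, and without repeat 3 at pH 6.4, 9 rose and 2 fell. KLF9, a Krüppel-like factor, had 14.2, 21.2, 15.4 and 14.1 CPM at pH 6.9 and 35.9, 47.8, 25.4 and 34.9 CPM at pH 6.4 (log2 1.15; adjusted p = 0.00431), with no overlap. CCNG1 and the cyclin-dependent kinase inhibitor CDKN1A rose by 0.43 and 0.37, both lost when any 1 of at least 4 libraries was left out, and the p53 target TP53I3 fell by 0.90. In the death and survival list 18.5% were called, near the 17.0% of all genes. Of 27 members 4 rose, among them the survival gene MCL1 (0.50), the death activator BBC3 (0.69) and BIRC2 (0.29), and CASP2 fell by 0.51. No rise was left in that list without repeats 1 or 4 at pH 6.9 or repeats 2 or 4 at pH 6.4, and 7 rose and 5 fell with the block and also without repeat 3 at pH 6.4.

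Immediate early and MAPK response genes are switched on by growth factor signals through ERK, and 11 of 34 rose and 3 fell (median log2 0.32). That is 41.2% called, against 17.0% of all tested genes. With the block 16 rose and 5 fell. Without repeat 2 at pH 6.4 or repeat 3 at pH 6.9, 7 rose. Only 1 fell without repeats 1 or 3 at pH 6.9 or repeats 2 or 4 at pH 6.4. AREG, amphiregulin, which binds the EGF receptor, had 92.1, 111, 92.5 and 80.4 CPM at pH 6.9 and 269.9, 339, 181 and 242 CPM at pH 6.4. Every pH 6.4 value exceeded every pH 6.9 value by a wide gap, repeat 3 included (log2 1.45, SE 0.15; adjusted p = 0.000535), and the mean at pH 7.4 was 43.2 CPM. The related ligand EREG rose by 0.89, whereas the ligands HBEGF and TGFA fell by 0.33 and 0.33, TGFA losing its call when any 1 of 6 libraries was left out. The feedback inhibitors SPRY2 and SPRY4 rose from 88.9 ± 6.12 to 141 ± 31.0 and from 93.2 ± 4.96 to 156 ± 41.4 CPM (SD, n = 4), the phosphatases DUSP5 and DUSP4 by 0.93 and 0.37, IER3 by 0.72, ATF3 by 0.98, MYC by 0.60 and FOSL1 by 0.65. DUSP10, which acts on stress kinases, fell by 0.41, a call lost in each of those 4 fits that left 1 fall. FOS, JUN and EGR1 had -0.14, -0.27 and 0.59 and were not called (chosen after their values were seen). IER3 shares exon bases with a gene on the other strand.

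Inflammatory and NF-kB genes had 6 of 32 higher and 2 lower (median log2 0.21), with 2 rises left when any 1 of repeats 2, 3 and 4 at pH 6.9 or repeats 2 and 4 at pH 6.4 was left out, and no fall without repeats 1 or 3 at pH 6.9 or repeats 2 or 4 at pH 6.4. With the block 9 rose and 3 fell. In the main fit 25% of the list was called, against 17.0% of all tested genes. IL24 had 1.55, 1.05, 0.974 and 1.13 CPM at pH 6.9 and 6.75, 9.41, 2.87 and 5.93 CPM at pH 6.4, and repeat 3 was again the lowest at pH 6.4 while still above pH 6.9. NFKBIZ rose by 0.53, the NF-kB subunits RELA, RELB and NFKB2 by 0.37, 0.44 and 0.43, and the inhibitor NFKBIA fell by 0.50. The calls of RELA and NFKBIA were lost when any 1 of 6 and of 4 libraries was left out. The chemokine CCL2, near 1 CPM, fell by 1.78, a call lost when any 1 of 8 libraries was left out. Interferon response genes, the antiviral set induced by type I interferon, fell in 11 of 42 cases with none higher (median log2 -0.50). That is 26.2%, against 8.20% of all tested genes lower. With the block 24 fell and 3 rose, and without repeat 3 at pH 6.4, 20 fell and 3 rose. Without repeat 1 at pH 6.9 or repeats 2 or 4 at pH 6.4 only 4 fell. OAS3, an RNA sensor, had 31.9, 22.2, 29.8 and 33.1 CPM at pH 6.9 and 14.9, 9.99, 24.1 and 11.7 CPM at pH 6.4 (log2 -0.94; adjusted p = 0.0118), and the growth-restraining SAMD9L had 104, 70.1, 109 and 85.1 CPM at pH 6.9 and 41.8, 18.5, 68.8 and 20.2 CPM at pH 6.4 (log2 -1.30). In both, repeats 2 and 4 at pH 6.4 were lowest, and repeat 3 lay at the edge of the pH 6.9 range, above its lowest library for OAS3. SAMD9 fell by 0.99, TRIM22 by 1.08, ISG15 by 0.67 and MX1 by 0.66, while STAT2, a signal carrier, stood at -0.01 (chosen after its value was seen).

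**Figure D4:**
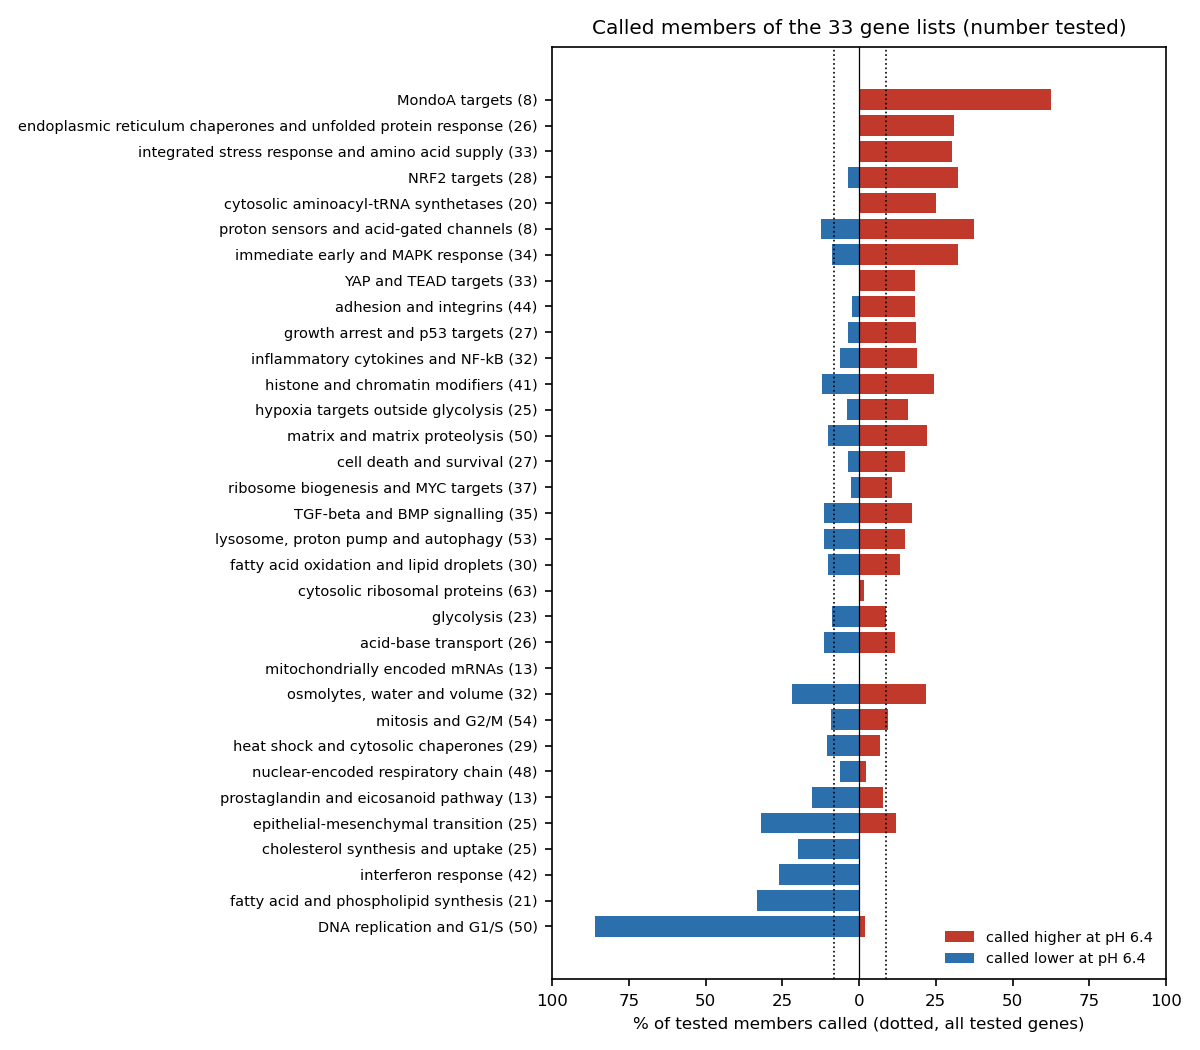
Share of the tested members of each of 33 gene lists called higher (red, to the right) or lower (blue, to the left) at pH 6.4 than at pH 6.9, as a percentage on the horizontal axis; the number tested is in parentheses. Dotted lines mark all tested genes, 8.83% higher and 8.20% lower. The replication list reaches farthest left, with 43 of 50 lower. The list of MondoA targets, which also holds MLXIP, MLXIPL and MLX, reaches farthest right, with 5 of 8 higher.

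Genes of osmolytes, water and cell volume moved both ways, 7 of 32 higher and 7 lower (43.8% called, against 17.0% of all tested genes). With the block the counts were 8 and 11, and without repeats 2 or 4 at pH 6.4 they were 2 and 3. Without repeat 3 at pH 6.9, 2 rose, and without repeat 1 at pH 6.9, 3 fell. AKR1B1, aldose reductase, which makes the osmolyte sorbitol, had 1025, 769, 1047 and 764 CPM at pH 6.9 and 554, 382, 532 and 349 CPM at pH 6.4, lower in every pH 6.4 library (log2 -0.99; adjusted p = 0.00376), after 2662 CPM at pH 7.4. The inositol carrier SLC5A3 fell by 0.58, and the water channel AQP1 by 0.79, whereas the taurine importer SLC6A6 rose from 169 ± 11.99 to 276 ± 46.5 CPM (SD, n = 4). WNK4 and both kinases that WNKs activate, STK39 and OXSR1, rose, the latter by 0.62 and 0.37, and their target cotransporter SLC12A2 fell by 0.33. NFAT5, the tonicity factor, stood at 0.12 and was not called (chosen after its value was seen).

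In the list of matrix and matrix proteolysis 11 of 50 rose and 5 fell (median log2 0.13). That is 32% called, against 17.0% of all tested genes. Without repeat 3 at pH 6.9, 4 rose, and without repeat 3 at pH 6.4, 14 rose and 8 fell. With the block 16 rose and 11 fell. The membrane protease MMP14 had 413, 436, 367 and 415 CPM at pH 6.9 and 689.8, 960.0, 514 and 887 CPM at pH 6.4 (log2 0.90; adjusted p = 0.00369), and the urokinase receptor PLAUR had 65.5, 61.9, 57.3 and 60.5 CPM at pH 6.9 and 114, 143, 75.0 and 152 CPM at pH 6.4 (log2 0.98). In both, repeat 3 was the lowest at pH 6.4 and the groups did not overlap. The protease inhibitor TIMP1, the plasminogen activator PLAT and collagenase MMP1 rose by 0.67, 0.62 and 1.67. TNC, the tumour matrix glycoprotein tenascin C, had 180.4, 162, 135 and 166 CPM at pH 6.9 and 100.5, 96.9, 109 and 97.4 CPM at pH 6.4, lower in every pH 6.4 library and alike in all 4 (log2 -0.67, SE 0.09; adjusted p = 0.00155). The heparan sulfate-cutting HPSE fell by 0.77 and the fibrillin FBN1 by 0.62.

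Adhesion genes rose in 8 of 44 cases and 1 fell (20.5% called, against 17.0% of all genes), with 18 and 5 with the block, 5 rises without repeats 1 or 3 at pH 6.9 or repeats 2 or 4 at pH 6.4, and 3 falls without repeat 3 at pH 6.4. ITGA5, the fibronectin receptor chain, had 238, 215, 200.01 and 208 CPM at pH 6.9 and 382, 394, 263 and 419 CPM at pH 6.4 (log2 0.76; adjusted p = 0.00376). The hyaluronan receptor CD44 rose from 784 ± 92.2 to 1227 ± 219.7 CPM, the membrane-cytoskeleton linker MSN from 962 ± 56.1 to 1437 ± 306 CPM and the vitronectin receptor chain ITGB3 by 0.96, and the caveolar CAV1 fell from 1387 ± 59.1 to 942 ± 184 CPM (SD, n = 4). ITGB1, the common partner chain, stood at -0.04 (chosen after its value was seen). Among epithelial-mesenchymal transition genes 8 of 25 fell and 3 rose (44% called, against 17.0% of all tested genes). The median log2 was -0.20, with no rise left without repeat 4 and 5 falls left without repeat 2 at pH 6.4. The falls took in both epithelial and mesenchymal genes: the tight junction CGN (-2.17), the keratins KRT80 (-0.73), KRT7 (-0.56), KRT8 (-0.35) and KRT18 (-0.34), the mesenchymal cadherin CDH11 (-0.72), S100A4 (-0.60) and SNAI2 (-0.48). The rises were the repressor ZEB1 (0.49; lost without repeat 4 at pH 6.4), vimentin VIM (0.40) and the claudin CLDN4 (0.26), the latter 2 lost when any 1 of at least 4 libraries was left out. VIM shares exon bases with an antisense gene.

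TGF-beta and BMP genes had 6 of 35 higher and 4 lower (28.6% called, against 17.0% of all tested genes). With the block 8 rose and 9 fell. Without repeat 2 at pH 6.4 the counts were 2 and 2. Only 2 rose without repeats 1 or 3 at pH 6.9 or repeat 4 at pH 6.4. Without repeat 3 at pH 6.4, 8 fell. SMAD3, which carries the TGF-beta signal, had 214, 212, 214 and 196 CPM at pH 6.9 and 353, 395, 279.6 and 347 CPM at pH 6.4 (log2 0.72, SE 0.10; adjusted p = 0.0018), and BMP4, a secreted ligand, had 461, 391, 418 and 354 CPM at pH 6.9 and 253, 181, 263 and 169 CPM at pH 6.4 (log2 -0.91; adjusted p = 0.00287), each without overlap. The ligand TGFB1 and the corepressor TGIF1 rose by 0.75 and 0.68, while TGFB3, TGFBI and the feedback inhibitor PMEPA1 fell by 0.90, 0.49 and 0.60. Of 33 YAP and TEAD targets 6 rose and none fell (2 without repeats 2 or 4 at pH 6.4, 11 higher and 1 lower with the block, and 1 lower without repeat 3 at pH 6.4). The share called was 18.2%, against 17.0% of all genes called and 8.83% higher. LPP, a focal adhesion protein, had 145, 125, 125 and 131 CPM at pH 6.9 and 221, 205, 177 and 215 CPM at pH 6.4 (log2 0.63; adjusted p = 0.00228), higher in all 4. The matricellular CCN1 and CCN2 rose by 0.52 and 0.58, both lost without repeat 2 or repeat 4 at pH 6.4, and TEAD3 rose by 0.43.

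Of the stress chaperones the cytosolic and the endoplasmic reticulum sets differed in their counts, a difference that was not tested. Heat shock genes had 2 of 29 higher and 3 lower (17.2% called, near the 17.0% of all genes), and 6 higher with the block and also without repeat 3 at pH 6.4. None rose without repeats 1, 2 or 4 at pH 6.4 or repeats 1, 3 or 4 at pH 6.9. The co-chaperone HSPH1 had 263, 228, 241 and 274 CPM at pH 6.9 and 178, 194, 170.2 and 185 CPM at pH 6.4 (log2 -0.47; adjusted p = 0.00605), after 479 CPM at pH 7.4, and DNAJB1 and DNAJA1 fell by 0.42 and 0.24 while DNAJB4 and HSF2 rose by 0.55 and 0.28. The calls of DNAJA1, DNAJB4 and HSF2 were lost when any 1 of at least 5 libraries was left out. Endoplasmic reticulum chaperone and unfolded protein response genes rose in 8 of 26 cases with none lower (median log2 0.28). That is 30.8%, against 8.83% of all tested genes higher. Without repeat 2 or repeat 4 at pH 6.4, 1 rose, and without repeat 3 at pH 6.4, 14 rose. The response factor XBP1 had 68.3, 67.9, 72.3 and 70.3 CPM at pH 6.9 and 92.1, 119, 82.8 and 108 CPM at pH 6.4 (log2 0.53; adjusted p = 0.00506). The sensor ERN1 rose by 1.03, HERPUD1 and EDEM1, which clear misfolded proteins, by 0.65 and 0.44, and the chaperone HSPA5 by 1.01. The first 3 of these were lost without repeat 2 or repeat 4 at pH 6.4.

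Lysosome, proton pump and autophagy genes had 8 of 53 higher and 6 lower (26.4% called, against 17.0% of all tested genes). With the block 14 rose. Without repeats 2 or 4 at pH 6.4, 5 rose and 2 fell, and 2 fell without repeat 1 at pH 6.9. The sterol exporter NPC1 had 169, 199, 167 and 176 CPM at pH 6.9 and 315, 385, 241 and 326 CPM at pH 6.4 (log2 0.83, SE 0.11; adjusted p = 0.0018), higher in all 4. Subunits of the proton pump differed, with ATP6V0A1 up by 0.65 and ATP6V0D1 down by 0.54. The autophagy gene WIPI1 rose by 0.99 and shares exon bases with another gene, and the calcium channel MCOLN1 fell by 0.46.

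Ribosomal protein genes were nearly level, with 1 of 63 higher, RPL3 (0.23), a call lost when any 1 of 10 libraries was left out; 3 were higher without repeat 3 at pH 6.4 and 13 with the block. Ribosome biogenesis and MYC target genes had 4 of 37 higher and 1 lower (median log2 0.19). That is 13.5% called, below the 17.0% of all tested genes. Without repeat 3 at pH 6.4 the counts were 15 and 2, and with the block 13 and 4. Only 1 rose without repeats 2 or 4 at pH 6.4, and 2 fell without repeat 1 at pH 7.4. The nucleolar GTPase GNL3 had 145, 152, 146 and 134 CPM at pH 6.9 and 217, 267, 159.7 and 226 CPM at pH 6.4 (log2 0.59), RRP12 and POLR1C rose by 0.72 and 0.45, and POLR1A, the large subunit of RNA polymerase I, fell by 0.38. Without repeats 2 or 4 at pH 6.4 the calls of RRP12 and POLR1C were lost. Of the ribosomal protein list 1.59% and of the nuclear respiratory chain list 8.33% was called, both below the 17.0% of all tested genes. Of 48 nuclear respiratory chain genes 1 rose, SDHA (0.50), and 3 fell, ATP5PB (-0.26), UQCRB (-0.35) and NDUFA4 (-0.21), all lost without repeats 2 or 4 at pH 6.4, and 3 rose and 11 fell with the block and 5 fell without repeat 1 at pH 7.4 or repeat 3 at pH 6.4. None of the 13 mitochondrial mRNAs was called (4 lower with the block, 1 without repeat 3 at pH 6.4): MT-CO1, a cytochrome oxidase subunit, had 9023 ± 352 and 9537 ± 1053 CPM (SD, n = 4), and MT-ND4, of complex I, 7206 ± 1214 and 8010.3 ± 648. The ribosomal RNA MT-RNR2, by contrast, had 8516, 7812, 10664 and 8736 CPM at pH 6.9 and 10968, 16534, 11584 and 17221 CPM at pH 6.4 (log2 0.66), a call lost without repeat 2 or repeat 4 at pH 6.4.

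Prostaglandin genes were called in 3 of 13 cases (23.1%, against 17.0% of all tested genes). PTGR1 rose by 0.78 and the synthase PTGES2 fell by 0.48. HPGD, which breaks prostaglandins down, fell from 2.69 ± 1.28 to 0.743 ± 0.630 CPM (SD, n = 4). Each call was lost without repeat 2 at pH 6.4, both falls also without repeat 3 at pH 6.9. Histone and chromatin modifiers rose in 10 of 41 cases and fell in 5 (36.6% called, against 17.0% of all tested genes). With the block 10 fell, and without repeat 3 at pH 6.4, 8 fell. Only 4 rises were left without repeats 1, 3 or 4 at pH 6.9 or repeats 2 or 4 at pH 6.4. The demethylase KDM7A had 19.2, 20.7, 14.6 and 16.5 CPM at pH 6.9 and 43.2, 67.3, 23.8 and 60.0 CPM at pH 6.4 (log2 1.45; adjusted p = 0.00415), with repeat 3 again closest to pH 6.9. The deacetylase HDAC9 rose from 39.0 ± 2.63 to 66.0 ± 13.8 CPM, HDAC5 by 1.06 and the demethylase KDM6B by 0.72. The acetyltransferase KAT2B fell from 74.4 ± 2.15 to 44.3 ± 10.9 CPM (SD, n = 4), and the methyltransferases SUV39H2 and EZH2 and the deacetylase HDAC1 by 0.45, 0.41 and 0.52.

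How evenly the 4 repeats showed a list is given here by medians of the difference between the pH 6.4 and pH 6.9 libraries of the same repeat number. The MondoA list had 0.28, 0.68, 0.25 and 0.50, and the integrated stress response 0.23, 0.42, 0.28 and 0.24, so repeat 3 was close to repeat 1 in both. Endoplasmic reticulum genes had 0.13, 0.52, -0.04 and 0.36, and cholesterol genes -0.05, 0.07, -0.34 and 0.14, with repeat 3 the lowest in both. All tested genes together lay between -0.02 and -0.004 in every repeat.

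**Figure D5:**
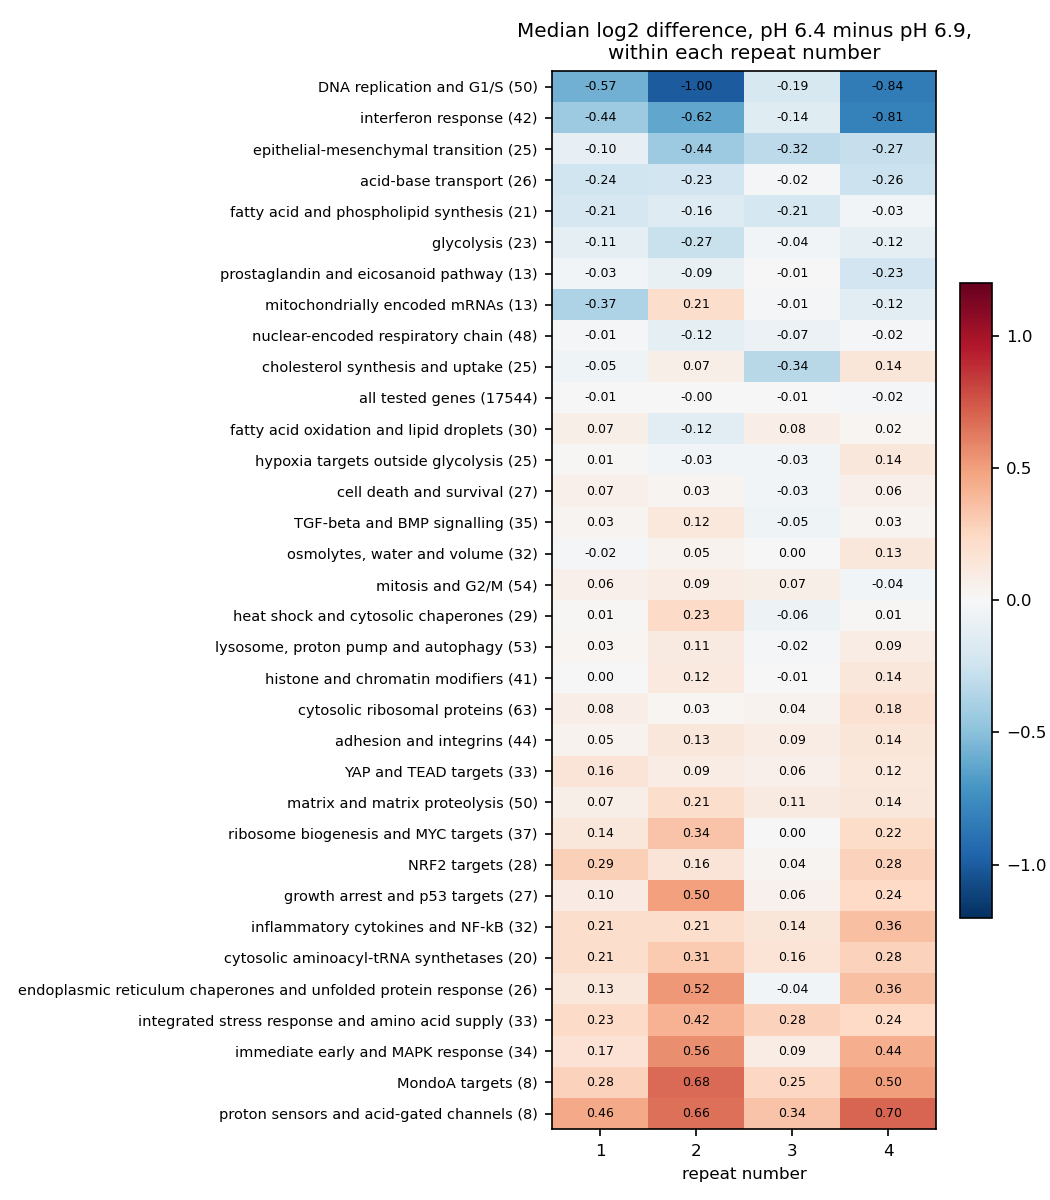
Median over the tested members of each list of the log2 difference pH 6.4 minus pH 6.9 within each repeat number (horizontal axis, 1 to 4), with the number of genes in parentheses; red is above 0 and blue below, as the colour bar gives. The replication and interferon lists are below 0 in all 4 columns and weakest in repeat 3, where the cholesterol list has its lowest value.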

How the data were processed

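The authors deposited raw read counts per gene in 1 table of 60664 genes and 12 libraries. Libraries came from a stranded mRNA kit, per the labels' protocols. The submitters' processing notes name STAR as the aligner, GRCh38.p13 (hg38) as the build and featureCounts as the counter. Tool versions, strandedness of the counting and the handling of reads with several matches are not stated in what was at hand, so genes that overlap or have near copies are uncertain. Symbols matched for 42028 genes, and 58396 matched GENCODE release 29. No 2 libraries held identical counts. Genes with no symbol took at most 0.316% of a library's counts.

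Counts went into edgeR 4.0.16 under R 4.3.3: filterByExpr (17544 genes), TMM, and the robust quasi-likelihood test of pH 6.4 minus pH 6.9 in a model of 1 term per medium over all 12 libraries (9 residual degrees of freedom), with Benjamini-Hochberg adjustment over all tested genes and calls under 0.05. CPM values are TMM-scaled, and log2 changes are the fitted values. The common biological coefficient of variation was 0.198, at 27018171 to 50643233 counts for each library compared. Changes past 1.5-fold used edgeR's glmTreat. DESeq2 1.42.0 and limma 3.58.1 (voom) were alternatives. The test was tried on simulated counts.

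Same-numbered pH 6.9 and pH 6.4 libraries deviated together from their media's means (r = 0.447, 0.248, 0.335 and 0.403 for repeats 1 to 4), and each of the 8 correlated best with its own number, so the numbers were taken to pair the samples. Different numbers also correlated within repeats 1 and 2 (0.21 and 0.165) and within 3 and 4 (0.187 and 0.175), and negatively between these sets. At pH 7.4, repeats 1 and 2 had 0.0447 and 0.126 with their own number at pH 6.9. They had 0.129 and 0.235 with each other's number, whereas repeats 3 and 4 had 0.259 and 0.319 with their own. The block covered all 12 libraries, and the main model leaves it out. The pairing comes from the data; the labels do not say what a number marks. The block fit is given beside each list count that it moves by more than 1.5 times.

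The comparison and the 33 gene lists were chosen with earlier results of these data known. Genes were named by rule: the 12 largest rises and falls among called genes of at least 5 CPM in the higher medium with an official symbol and no overlap, the 6 smallest adjusted p-values, the 8 most abundant calls, up to 4 called members per list by adjusted p (or 2 abundant members where none was called), and up to 3 calls against a list's direction. Other names were chosen after their values were seen, including members given by log2 change alone. Some genes are counted in the lists and not reported here by name.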

Additional observations from a re-analysis of the deposited data

Results flagged for a closer look

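Values per library of the genes named by rule, and of 6 library measures, were checked for a library far from the other 3 of its medium. Of 334 groups of 4, 9 were past Dixon's 95% critical value, or 2.69%. Most genes were named for small p-values or gaps between media, so the usual chance rate of 1 in 20 is no yardstick here. At pH 6.4 all 4 were repeat 3: SREBF1 at 112.2 CPM (others 63.15 to 66.25), FABP3 at 0.5889 (0.1942 to 0.2055), CCL2 at 0.9658 (0.137 to 0.2438) and CLDN4 at 100.6 (111.7 to 113.3). At pH 6.9 the 5 were MYH15 in repeat 1 at 58.63 CPM (39.36 to 40.72), MVK in repeat 3 at 35.67 (30.06 to 31.01), HADH in repeat 2 at 85.94 (68.41 to 70.42), TRIM22 in repeat 4 at 7.213 (9.741 to 10.25) and SMAD3 in repeat 4 at 196.5 (212.3 to 213.9). At pH 6.4 each of these repeat 3 values lay on the pH 6.9 side of the other 3 libraries.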

How the results depend on the processing

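For the 161 genes named by rule the direction was the same in every alternative run that gave a value, and 111 of 159 named calls held in all 12 fits that left out 1 library. Higher and lower counts were 2823 and 2633 with the replicate block and 0 and 0 within repeats 3 and 4; 855 were lower within repeats 1 and 2, and 2254 were lower without both repeat 3 at pH 6.4 and repeat 2 at pH 6.9, an alternative chosen after seeing the data. Leaving out 1 library gave 659 to 2474 higher and 512 to 2470 lower. Genes past 1.5-fold, 3 in the model as reported, were 30 with DESeq2, 1 with limma-voom, 28 with no filter on low counts, 8 with a filter of 5 CPM, 1 with the 8 libraries only, 64 with the block, 14 within repeats 1 and 2, 0 within repeats 3 and 4, 1 without the 2 libraries of fewest genes, 479 without the 2 libraries that stood apart, and 1 to 524 when leaving out 1 library. The cause was not tested. Scaled by library size, 2 growth arrest, 2 NF-kB, 4 osmolyte, 5 chromatin, 2 ribosome biogenesis, 5 lysosome and 1 heat shock genes were higher. With that scaling 8 TGF-beta, 4 glycolysis, 3 NRF2, 3 cell death, 2 adhesion, 5 nuclear respiratory chain and 2 ribosome biogenesis genes were lower. So were 1 synthetase gene and 1 mitochondrial mRNA, and no ribosomal protein gene was called. The replicate block changed no call among the 161 genes; list counts that it moved by more than 1.5 times stand with each list. Low counts limit genes under 1 CPM, of which 2.12% were called.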

Other observations

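Genes of the early secretory pathway stood out among abundant rises that no list had covered, so 5 lists of them were written after their values were seen. The lists do not hold every member of each family, and no test was made on them. COPII coats carry cargo from the endoplasmic reticulum, COPI coats return it from the Golgi, golgins tether vesicles, SNAREs fuse them, and the hexosamine pathway makes the sugar donor for glycosylation. Of the 58 tested members 37 were higher at pH 6.4 and none lower, where 8.83% of all genes were higher. The median was 0.49, against -0.0022 from pH 7.4 to pH 6.9 in the same fit.

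The 7 COPI coat subunit genes called were COPA (0.68), COPB1 (0.68), COPB2 (0.58), COPE (0.33), COPG1 (0.92), COPZ1 (0.68) and ARCN1 (0.62), while the paralogs COPG2 (-0.07) and COPZ2 (-0.24) were not. With ARF1 and the listed ARF regulators 11 of 14 rose, 4 without repeat 4 at pH 6.4. COPG1 had 164, 170.3, 161 and 149 CPM at pH 6.9 and 293, 389.6, 188 and 349.8 CPM at pH 6.4 (SE 0.16; adjusted p = 0.00433), each pH 6.4 library above each pH 6.9 library. COPZ1 and ARFGAP1 were apart too, but the groups overlapped for COPA, COPB1, COPB2, COPE, ARCN1, ARF1, ARFGAP3 and GBF1. COPB1 in repeat 3 had 376.7 CPM at pH 6.4, within its pH 6.9 range of 349.3 to 432.2 CPM. In the COPII set 9 of 13 rose, 5 without repeats 2 or 4 at pH 6.4. Its called SAR1B, SEC13, SEC24C and SEC31A had overlapping groups. Its cargo adaptor SEC24D had 115, 110.3, 99.1 and 100.9 CPM at pH 6.9 and 214, 330.3, 132 and 293 CPM at pH 6.4 (log2 1.19; adjusted p = 0.00379), SEC24A rose by 0.91, SEC23A by 0.85 and SEC13 by 0.84. Among golgins 7 of 15 rose, 3 without repeats 2 or 4 at pH 6.4 or repeat 3 at pH 6.9 and 11 with the replicate block, led by GOLGA2, with 131, 138, 125 and 119 CPM at pH 6.9 and 238, 376, 156 and 335 CPM at pH 6.4 (log2 1.11; adjusted p = 0.00449). GOLPH3 and GORASP2 were without overlap like GOLGA2, whereas the called GOLGA3, GOLGA4, GOLGA5 and GOLGB1 overlapped. Of the 11 genes in the SNARE list 6 rose, among them BET1L (0.91) and GOLT1B (0.93), a Golgi transport gene that is not itself a SNARE. Of 5 hexosamine genes 4 rose, among them the entry enzyme GFPT1 (1.01) and PGM3 (0.97).

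Some strong changes fall under no rule of naming and were chosen after their values were seen. ERRFI1, an inhibitor of the epidermal growth factor receptor, had 536, 597, 524 and 526 CPM at pH 6.9 and 1207, 1653, 859.6 and 1552 CPM at pH 6.4 (log2 1.27, SE 0.15; adjusted p = 0.00118), higher in every pH 6.4 library. The membrane protease ADAM19 rose by 1.55, the cytochrome CYP1B1 by 1.28, the NAD-making NAMPT by 0.91 and the proline-making PYCR1 by 1.09 on the log2 scale, and the factor TCF19 fell by 0.99. The largest log2 changes of all, for COL20A1 (4.51) and NECAB2 (4.49), rest on means of 0.158 and 0.0477 CPM at pH 6.9 and 3.56 and 1.06 CPM at pH 6.4.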
